A study of Mus musculus with 17 samples.

Results

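The 10 genes described here encode surface, lysosomal and secreted proteins that mark lipid-associated macrophages, a state defined by the lipid receptor TREM2. They are Trem2, Tyrobp, Gpnmb, Cd9, Cd63, Spp1, Lgals1, Lgals3, Dcstamp and Acp5. They were taken by symbol from a table of 40548 genes, in which each symbol occurred 1 time, and all 10 passed the filter on low counts. RNA sequencing had been done on 17 libraries of mouse macrophages, sorted from liver or from adipose tissue, and the design asks how diet, liver gate and tissue differ. All mice were Cx3Cr1-GFP/WT on the C57BL/6 strain, so that the reporter and the single intact Cx3cr1 copy were shared by controls and fed animals alike. STD KC (n = 3) were liver cells with high F4/80 and with TIM4, the gate of Kupffer cells, from mice on standard chow over the same 16 weeks. HFD KC (n = 5), given as the same gate, came from mice kept for 16 weeks on a diet rich in fat and sucrose. The sort label was frac_neg for all 3 STD KC libraries but CD68 for 3 of the HFD KC libraries. Cx3cr1pos HFD (n = 4) were liver macrophages of the same diet chosen by the GFP reporter, and ATM HFD (n = 5) were adipose tissue macrophages of that diet chosen by F4/80 and CD64. No adipose tissue macrophages of mice on standard chow were analysed here, and whether each library came from a separate animal is not stated, so p-values measure the spread between these libraries.

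TREM2 is a receptor for lipids and lipoproteins that has no signalling tail of its own and acts through the adaptor DAP12, which Tyrobp encodes and which recruits the kinase SYK through its immunoreceptor tyrosine-based activation motif. In adipose tissue and liver of obese mice, TREM2-bearing macrophages gather around lipid-laden or dying cells and are known for a joint set of transcripts that includes the tetraspanins Cd9 and Cd63, the glycoprotein gene Gpnmb, the matrix protein gene Spp1 and galectins. Several of these genes are also known from osteoclasts, where Dcstamp serves cell fusion and Acp5 encodes the tartrate-resistant acid phosphatase of bone resorption.

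Library totals were 25644835 to 38207943 counts, so that 3 counts in a library equal 0.0785 to 0.117 CPM, the unit of counts scaled to a common library total. The sort genes followed the gates: Timd4, which encodes TIM4, averaged 1389 CPM for STD KC, 1116 for HFD KC, 34.9 for Cx3cr1pos HFD and 6.02 for ATM HFD, while Cx3cr1 averaged 390.5 CPM in Cx3cr1pos HFD and at most 18.1 in the other groups. The library HFD KC hfd2 stood apart from its group, with Timd4 at 387.5 CPM against 1013 to 1613 in the other 4. A set of 8 general macrophage markers, all in the table, summed to 22680 to 28210 CPM across the 17 libraries. The summed level of 8 Kupffer cell markers, all 8 of them in the table, was 43880 to 46620 CPM for STD KC, 33110 to 48650 for HFD KC, 6237 to 13630 for Cx3cr1pos HFD and 649.7 to 873 for ATM HFD. That of 8 monocyte-derived cell markers was 23.2 to 28.6, 47.8 to 168, 832 to 1530 and 1059 to 1818 CPM in the same order. In ATM HFD Fn1 and S100a6, with means of 668 and 282 CPM, made up most of it, against 17.4 and 25.8 in Cx3cr1pos HFD. The other markers of that list, the sort gene Cx3cr1 among them, had lower means in ATM HFD than in Cx3cr1pos HFD. Folr2 made up most of the Kupffer sum in ATM HFD, with a mean of 617 CPM against 160 in Cx3cr1pos HFD. The 6 B cell markers summed to 72.0 to 245.5 CPM for STD KC, 456 to 1151 for HFD KC, 811 to 2741 for Cx3cr1pos HFD and 406 to 1755 for ATM HFD, with none of them at or under 3 counts in any group. The 8 liver sinusoidal endothelial markers ran downwards, from 1885 to 2887 CPM for STD KC and 781 to 2625 for HFD KC to 512 to 652 for Cx3cr1pos HFD and 49.1 to 87.2 for ATM HFD; among HFD KC libraries they were at 2550 in hfd1, 1257 in hfd2, 793 in hf1, 781 in hf2 and 2625 in hf3. The 7 T and NK cell markers summed to 4.73 to 5.65 CPM for STD KC, 7.55 to 55.3 for HFD KC, 19.6 to 50.7 for Cx3cr1pos HFD and 4.83 to 16.2 for ATM HFD. The part of these lists in the results was not tested. In sorted bulk samples fewer cells of a type and less RNA per cell cannot be told apart. Within HFD KC the name prefix coincides with a sort label, CD68 for the 3 libraries named hf and frac_neg for the 2 named hfd, so name and label cannot be told apart. The STD KC libraries are all frac_neg, so HFD KC against STD KC is not matched in sort label. In that comparison 6 members and 505 of all genes were called with frac_neg HFD KC libraries alone, and 6 and 372 with CD68 ones alone. The part of the sort label was not tested.

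Short sites in the promoters of 5 members are shown because they hold motifs of macrophage and osteoclast factors close to the start of genes whose levels differed between the groups. RefSeq windows of 250 bases before to 50 after the start (build GRCm38.p6) were held for 7 members in 10 windows, and were searched on both strands for the E-box CACGTG, the M-box TCATGTG of MITF, the AP-1 site TGAGTCA and the PU.1 core GAGGAAG. None of these motifs overlapped another at the sites found, and capitals mark the motif with 9 bases on either side.
Trem2, PU.1 core, chr17:48346351-48346375, plus strand: cctcctttcCTTCCTCcctccctca
Cd63, PU.1 core, chr10:128909276-128909300, plus strand: agacaagggCTTCCTCaaagggttt
Spp1, PU.1 core, chr5:104434989-104435013, plus strand: aaaccagagGAGGAAGtgtaggagc
Gpnmb, AP-1, chr6:49036517-49036541, plus strand: aggggcaagTGACTCAtgagcacga
Acp5, M-box, chr9:22130673-22130697, minus strand: tccagtgctCACATGAcccaagggg
The PU.1 cores lay 41 to 35 bases before the start in Trem2, 60 to 54 in Cd63 and 113 to 107 in Spp1, and 13.6% of 32851 windows of this length hold that motif. The AP-1 site of Gpnmb lay 8 to 14 bases after the start (5.2% of windows), and the M-box of Acp5 lay 90 to 84 bases before it (3.77% of windows). Acp5 had 3 windows and Spp1 had 2. Apart from the window with the site shown, those of these genes held none of the motifs. The E-box, in 7.15% of windows, was not among the letters of any member window, and the Cd9 and Lgals3 windows held none of the motifs. A match is a description of letters and not a binding site.

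The group means of 8 members were ordered upwards from the Kupffer gate on chow to that on the diet, to the reporter-positive liver cells and to the adipose cells, while Tyrobp and Acp5 departed from that order. In HFD KC against STD KC 6 of 10 members rose by the edgeR quasi-likelihood test with Benjamini-Hochberg adjustment (threshold 0.05), beside 2.27% of all 15285 genes tested. None fell, neither by that test, nor at an unadjusted p under 0.05, nor by DESeq2. Those that rose were Trem2, Gpnmb, Cd9, Cd63, Dcstamp and Acp5, and the median log2 fold change was 1.84 over the members and 0.02 over all genes. In Cx3cr1pos HFD against HFD KC 7 members rose, beside 5.85% of all genes, with medians of 1.15 and 0.002. None fell by edgeR or by DESeq2, and 1, Tyrobp, was lower at an unadjusted p under 0.05. The members that rose there were Trem2, Gpnmb, Cd9, Cd63, Spp1, Lgals1 and Lgals3.

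In ATM HFD against HFD KC 8 members rose, beside 23.8% of all genes, and 1, Acp5, fell, beside 25.2% of all genes; Tyrobp was the remaining one. The median log2 fold change was 2.54 over the members and 0.001 over all genes. In ATM HFD against Cx3cr1pos HFD 6 members rose, beside 18.9% of all genes, and Acp5 fell, beside 20.8% of all genes, with medians of 0.96 and -0.03. Diet and gate both differ in Cx3cr1pos HFD against STD KC, where 9 members rose, beside 11.9% of all genes, with medians of 2.99 and 0.01. None fell there by edgeR, at an unadjusted p under 0.05 or by DESeq2. The 5 comparisons share libraries and are not independent of each other.

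**Figure D1:**
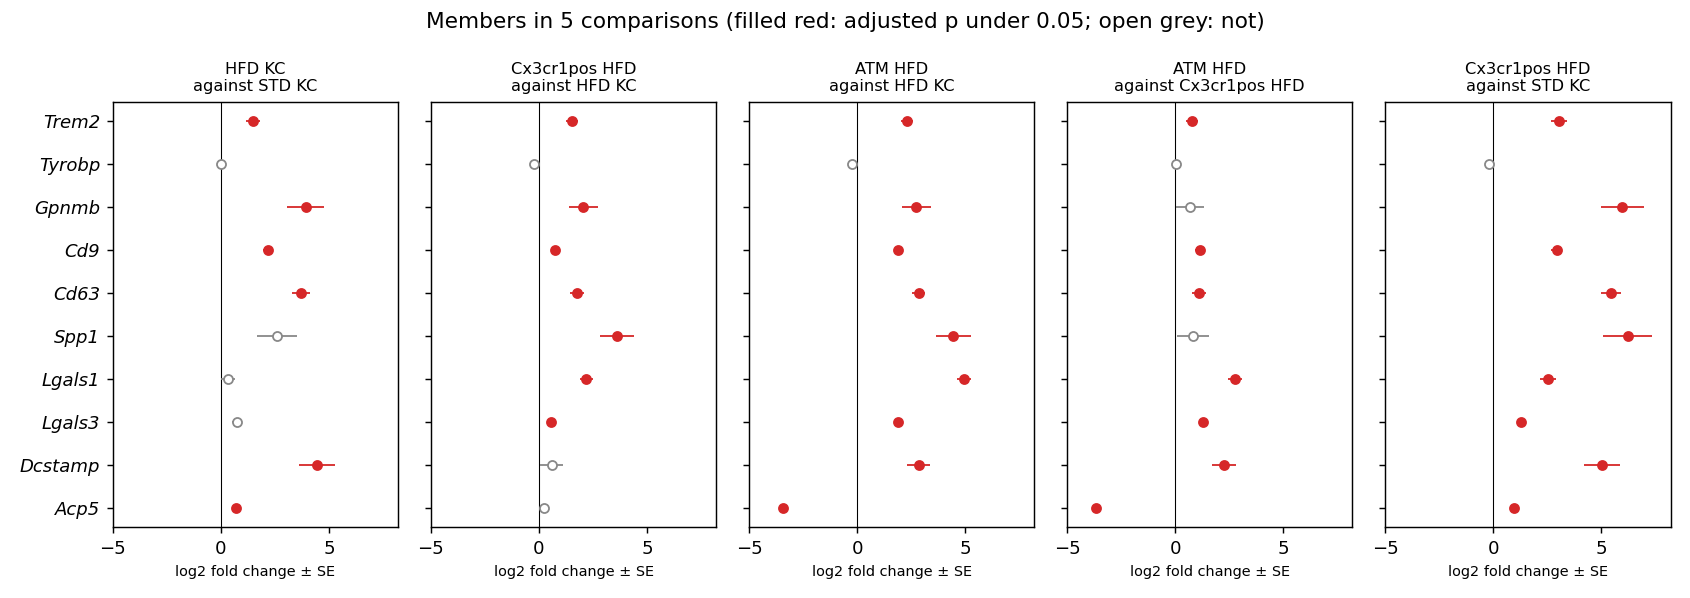
Log2 fold change with its standard error (x axis) for the 10 genes (y axis) in each of the 5 comparisons, 1 panel each. Filled red points have an edgeR adjusted p under 0.05 and open grey points do not: 6, 7, 9, 7 and 9 points are filled from left to right, and Acp5 lies left of 0 in both panels where ATM HFD comes first, ATM HFD against HFD KC and ATM HFD against Cx3cr1pos HFD.

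The receptor and its adaptor behaved differently. Trem2 (ENSMUSG00000023992) stood at 73.0, 72.6 and 58.4 CPM in the STD KC libraries std1, std2 and std3. HFD KC libraries had 101 in hfd1, 360 in hfd2, 130 in hf1, 226 in hf2 and 145 in hf3. Every HFD KC library lay above every STD KC library, with hfd2 the highest. In Cx3cr1pos HFD it was at 522, 509, 473 and 719 CPM in hf1, hf2, hf3 and hfd2. In ATM HFD it was at 935, 1171, 910.4, 1119 and 1041 CPM in hfd1, hfd2, hf1, hf2 and hf3. Ordered by their means, no neighbouring groups overlapped.

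Trem2 rose 2.85-fold in HFD KC against STD KC (log2 fold change 1.51 ± 0.32 SE, edgeR adjusted p = 0.0153). The fold change was 1.14 on the log2 scale without HFD KC hfd2 (edgeR adjusted p = 0.0142), and the call ended without any 1 of the STD KC libraries (edgeR adjusted p = 0.0582 to 0.106). Trem2 rose 2.91-fold in Cx3cr1pos HFD against HFD KC (1.54 ± 0.28, edgeR adjusted p = 0.00133) and 5.04-fold in ATM HFD against HFD KC (2.33 ± 0.28, edgeR adjusted p = 2.45e-06). The difference between the reporter-positive liver cells and the adipose cells was 1.73-fold (0.79 ± 0.28, edgeR adjusted p = 0.0344), and was lost without Cx3cr1pos HFD hf1, hf2 or hf3 or ATM HFD hfd2 (edgeR adjusted p = 0.0509 to 0.0940).

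Tyrobp (ENSMUSG00000030579), the DAP12 gene, had means of 1521 CPM ± 82.4 (SD, n = 3) for STD KC, 1551 ± 210.4 (n = 5) for HFD KC, 1297 ± 86.4 (n = 4) for Cx3cr1pos HFD and 1414 ± 139 (n = 5) for ATM HFD. It passed the test in none of the 5 comparisons (edgeR adjusted p = 0.0771 to 0.940), though it was lower at an unadjusted p under 0.05 in Cx3cr1pos HFD and in ATM HFD against HFD KC, and without HFD KC hfd2 or with CD68 libraries alone it passed in the latter (-0.25 and -0.29, edgeR adjusted p = 0.0488 and 0.0425). The 95% interval of its log2 fold change was -0.20 to 0.26 in HFD KC against STD KC and -0.46 to 0.02 in Cx3cr1pos HFD against STD KC. Its Cx3cr1pos HFD libraries, 1182 to 1373 CPM, all lay below the STD KC libraries, 1463 to 1616.

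Set against its adaptor, Trem2 took a different share of the counts in each group. The ratio of Trem2 to Tyrobp counts within a library does not depend on depth or scaling, though it is not corrected for gene length. It was 0.0491, 0.0496 and 0.0362 in the STD KC libraries std1 to std3. In HFD KC it was 0.0696, 0.282, 0.0711, 0.136 and 0.0943 in hfd1, hfd2, hf1, hf2 and hf3. The Cx3cr1pos HFD libraries had 0.350 to 0.563 and the ATM HFD libraries 0.668 to 0.855, so that no neighbouring groups overlapped. The geometric means were 0.0445, 0.112, 0.424 and 0.732. This ratio and those of Lgals1 to Lgals3 and Cd63 to Cd9 were chosen after their values were seen and are given as descriptions, with no test.

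**Figure D2:**
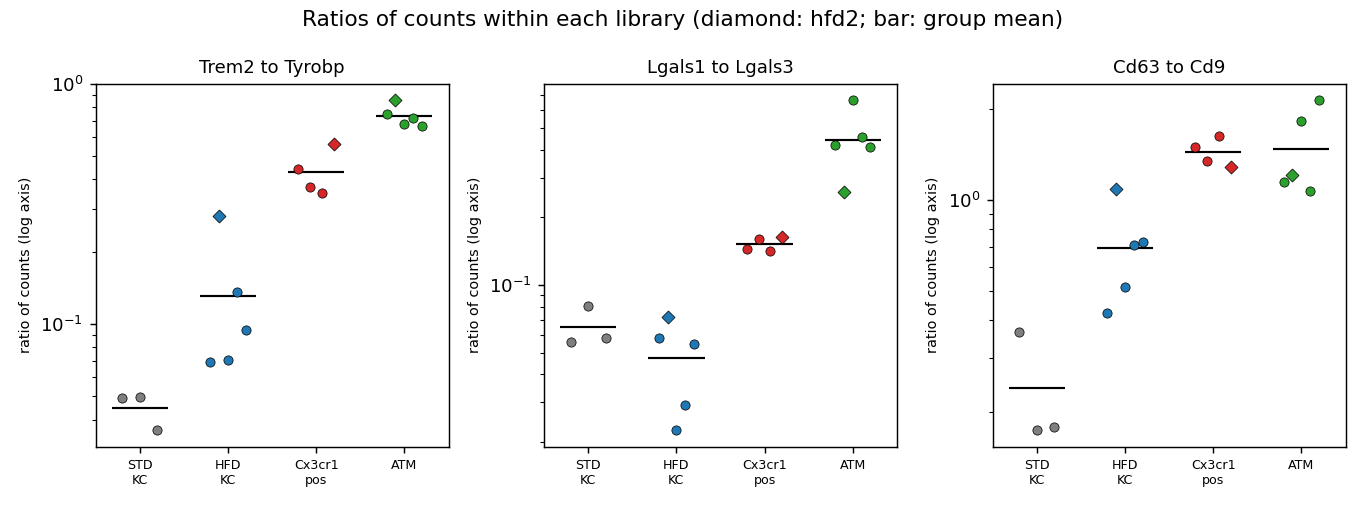
Ratio of counts within each library (log axis) for Trem2 to Tyrobp, Lgals1 to Lgals3 and Cd63 to Cd9 in the 4 groups; points are libraries, diamonds those named hfd2 and bars group means. The Trem2 to Tyrobp ratio runs from 0.0362 to 0.0496 in STD KC up to 0.668 to 0.855 in ATM HFD without overlap, while the Cd63 to Cd9 ratio of Cx3cr1pos HFD (1.29 to 1.62) lies within that of ATM HFD (1.07 to 2.13).

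Of 16 genes for its ligands, other adaptors, sheddases and signalling, 3 rose, beside 5.85% of all genes, and none fell in Cx3cr1pos HFD against HFD KC by edgeR, with 2 lower at an unadjusted p under 0.05 and 1 by DESeq2. In that comparison the median log2 fold change of the list was -0.08, against 0.002 over all genes. The guanine nucleotide exchange factor Vav3 went from 11.6 ± 1.94 (SD, n = 5) to 27.0 ± 7.68 CPM (n = 4, log2 fold change 1.22 ± 0.21 SE, edgeR adjusted p = 0.000983), and the others were Syk, the kinase that DAP12 recruits (0.42 ± 0.13), and Adam10, which sheds TREM2 (0.31 ± 0.09). The count of rises was 1 when any library named hf was left out of either group. In HFD KC against STD KC none of the 16 passed by edgeR or DESeq2, with 1 higher and 1 lower at an unadjusted p under 0.05.

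Of these 16, 12 fell and 1 rose in ATM HFD against HFD KC (median -0.70), beside 25.2% and 23.8% of all genes. Against Cx3cr1pos HFD 9 fell and 1 rose (median -0.61), beside 20.8% and 18.9% of all genes. The Src family kinase gene Lyn fell from 581 ± 47.9 to 224 ± 21.3 CPM against HFD KC (-1.47 ± 0.10, edgeR adjusted p = 1.79e-09). Adam10 fell from 348 ± 35.1 to 161 ± 13.4 CPM (-1.21 ± 0.09, edgeR adjusted p = 8.37e-09), and the phosphatase gene Ptpn6 from 791 ± 81.7 to 392 ± 44.3 CPM (-1.10 ± 0.10). Vav3 was the one that rose, to 44.7 ± 17.5 CPM (1.84 ± 0.21, edgeR adjusted p = 1.43e-06). Apoe, which encodes a lipoprotein ligand of TREM2, stood at 20280 ± 2734 CPM for Cx3cr1pos HFD and 5717 ± 2051 for ATM HFD (-1.92 ± 0.24, edgeR adjusted p = 8.94e-06).

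Among 12 other TREM family and DAP12-coupled receptor genes, 2 rose in HFD KC against STD KC, beside 2.27% of all genes. None fell there by edgeR or DESeq2, with 1 lower at an unadjusted p under 0.05. Of the same genes 4 rose and 1 fell in Cx3cr1pos HFD against HFD KC, where 5.85% of all genes rose and 7.48% fell. In ATM HFD against HFD KC 2 rose and 6 fell, where 23.8% of all genes rose and 25.2% fell. Clec5a, a DAP12-coupled lectin receptor, went from 3.95 ± 0.80 CPM in STD KC to 9.16 ± 1.66 in HFD KC (1.21 ± 0.22, edgeR adjusted p = 0.00508), 46.5 ± 10.2 for Cx3cr1pos HFD and 22.7 ± 4.53 for ATM HFD. Sirpb1a, a signal-regulatory protein that couples to DAP12, went from 4.65 ± 1.61 to 14.5 ± 3.82 CPM with the diet (1.65 ± 0.30, edgeR adjusted p = 0.00545) and stood at 85.2 ± 28.0 in Cx3cr1pos HFD. Treml4, a TREM family receptor gene, was at 1177 ± 194 CPM for HFD KC and 1005 ± 183 for Cx3cr1pos HFD but at 7.38 ± 1.80 in ATM HFD (-7.41 ± 0.22 against HFD KC, edgeR adjusted p = 1.54e-13). Against Cx3cr1pos HFD 9 of the 12 fell in ATM HFD, beside 20.8% of all genes. None rose there by edgeR, by DESeq2 or at an unadjusted p under 0.05, where 18.9% of all genes rose by edgeR.

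Gpnmb (ENSMUSG00000029816), a transmembrane glycoprotein of lysosomes and of the cell surface whose extracellular part is shed, and Spp1 (ENSMUSG00000029304), which encodes the secreted matrix protein osteopontin, varied much within groups, with 12.6-fold and 10.9-fold between the highest and the lowest HFD KC library. Gpnmb stood at 80.5, 11.6 and 10.8 CPM in STD KC std1, std2 and std3. Among HFD KC libraries it read 380, 1530, 121, 278 and 256 CPM in hfd1, hfd2, hf1, hf2 and hf3. The library std1 was the high one of the controls, and its B cell marker sum, 245.5 CPM, was also above those of std2 and std3, 72.0 and 79.8; the part of that in the result was not tested. In Cx3cr1pos HFD Gpnmb was at 1474, 1513, 1626 and 3845 CPM in hf1, hf2, hf3 and hfd2. In ATM HFD it was at 3294 to 3956 CPM with a median of 3838. HFD KC hfd2 reached the lower Cx3cr1pos HFD libraries, and Cx3cr1pos HFD hfd2 reached the ATM HFD libraries.

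Gpnmb rose 15.2-fold in HFD KC against STD KC (log2 fold change 3.92 ± 0.87 SE, edgeR adjusted p = 0.0179). This value was 5.52 without std1 and 2.91 without HFD KC hfd2, both called, and the call ended without std2 or std3 (edgeR adjusted p = 0.128 and 0.110). From HFD KC to Cx3cr1pos HFD, it rose 4.16-fold (2.06 ± 0.66), at an adjusted p of 0.0497 by edgeR that was past the threshold under 8 of 20 alternatives only. With the HFD libraries alone the difference was 2.04 without the replicate block by library name (edgeR adjusted p = 0.0316) and 2.38 with it (edgeR adjusted p = 0.00302), and without Cx3cr1pos HFD hfd2 it was 1.54 (edgeR adjusted p = 0.145). In ATM HFD against HFD KC it rose 6.70-fold (2.74 ± 0.66, edgeR adjusted p = 0.00229), and ATM HFD and Cx3cr1pos HFD did not differ past the threshold (0.69, 95% interval -0.61 to 1.99).

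Spp1 stood at 9.86, 4.49 and 2.22 CPM in STD KC. The HFD KC levels were 21.2, 107, 9.79, 9.94 and 16.7 CPM in hfd1, hfd2, hf1, hf2 and hf3, so that hf1 lay just below the highest STD KC library and hfd2 lay far above the rest. In Cx3cr1pos HFD it was at 487, 246, 307 and 583 CPM in hf1, hf2, hf3 and hfd2. In ATM HFD it was at 1020, 210.4, 1882, 362 and 296 CPM in hfd1, hfd2, hf1, hf2 and hf3, an 8.94-fold range within 1 group. The highest of these, hf1, also had the highest neutrophil marker sum of its group, 70.6 CPM against 3.12 to 7.31 in the other 4, but hfd1, the next highest for Spp1, had 7.31; the part of these cells was not tested.

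The diet difference of Spp1 in the Kupffer gate did not pass (log2 fold change 2.60 ± 0.93 SE, edgeR adjusted p = 0.145; 1.38 without hfd2), although DESeq2 called it (adjusted p = 0.0392). Spp1 rose 12.3-fold in Cx3cr1pos HFD against HFD KC (3.62 ± 0.79, edgeR adjusted p = 0.00552). That log2 fold change was 4.82 without HFD KC hfd2. With frac_neg HFD KC libraries alone it was 2.65 and the call ended (edgeR adjusted p = 0.102). With libraries named hfd alone, 1 of them Cx3cr1pos HFD, it was 3.24. In ATM HFD against HFD KC Spp1 rose 21.8-fold (4.45 ± 0.81, edgeR adjusted p = 0.000214). Between ATM HFD and Cx3cr1pos HFD the libraries overlapped and the difference did not pass (0.83, 95% interval -0.65 to 2.31, edgeR adjusted p = 0.410).

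**Figure D3:**
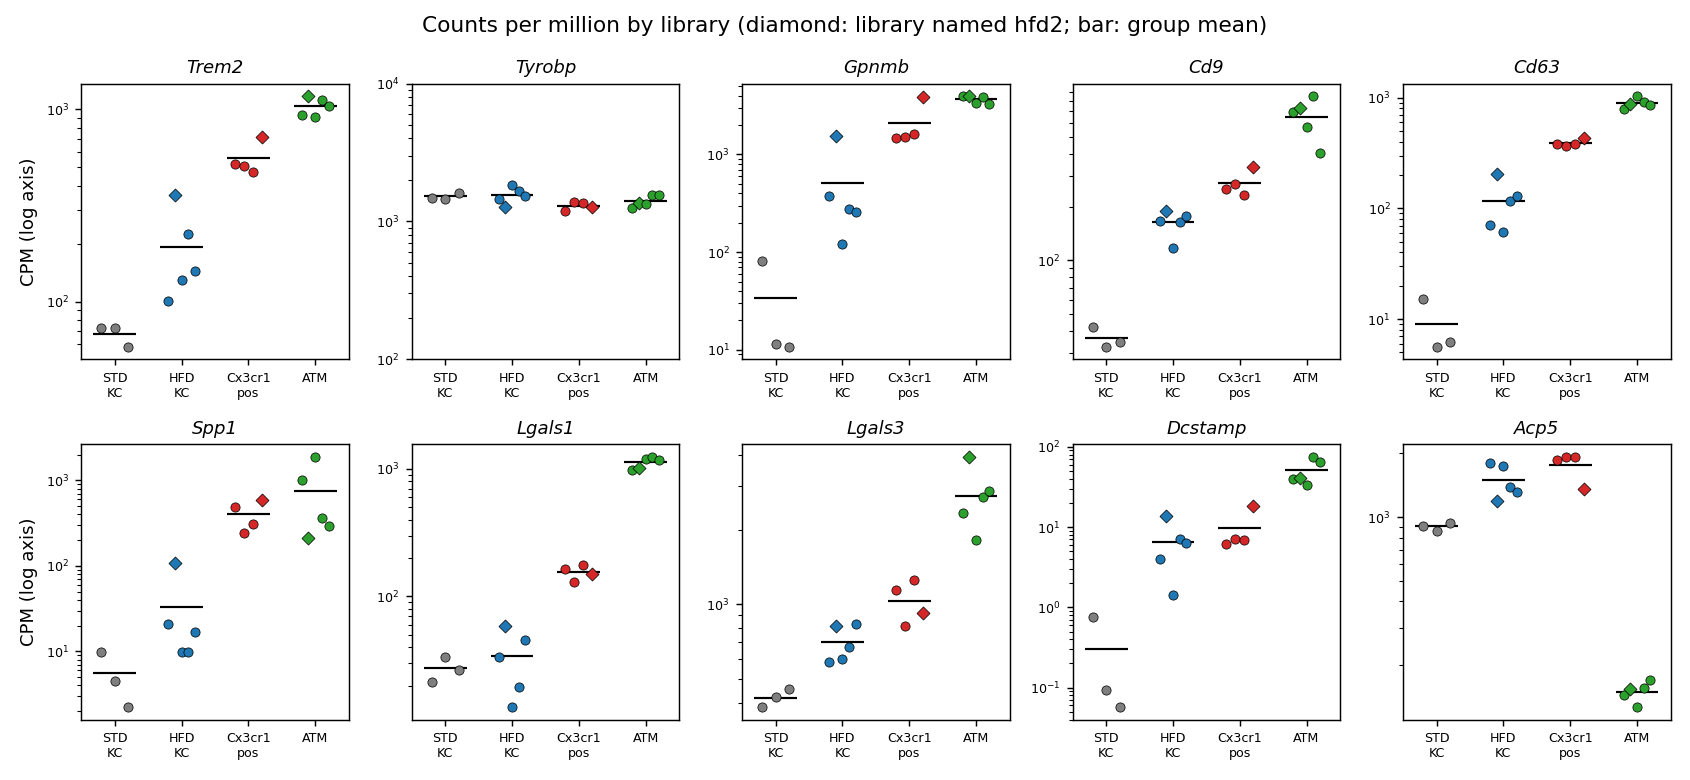
Level of each of the 10 genes in every library (CPM, log axis; the axis differs between panels) in the 4 groups; points are libraries, diamonds those named hfd2 and bars group means. The diamond of HFD KC lies highest of its group for Trem2, Gpnmb, Cd9, Cd63, Spp1, Lgals1 and Dcstamp, and the 5 ATM HFD libraries of Spp1 spread from 210.4 to 1882 CPM.

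Of 12 genes for receptors of osteopontin, GPNMB and galectins, 2 rose in HFD KC against STD KC, beside 2.27% of all genes. None fell there by edgeR, by DESeq2 or at an unadjusted p under 0.05. In Cx3cr1pos HFD against HFD KC 6 rose and 1 fell (median 0.54), beside 5.85% and 7.48% of all genes. In ATM HFD against Cx3cr1pos HFD 1 rose and 8 fell (median -1.31), beside 18.9% and 20.8% of all genes. Havcr2, which encodes TIM3, a receptor of galectin-9, went from 13.2 ± 1.23 CPM in STD KC to 30.8 ± 8.94 in HFD KC (1.23 ± 0.21, edgeR adjusted p = 0.00319), 101 ± 13.2 for Cx3cr1pos HFD and 24.0 ± 2.44 for ATM HFD. The integrin gene Itga9, whose product binds osteopontin, was at 243 ± 56.9 CPM in HFD KC and 25.6 ± 4.47 in ATM HFD (-3.33 ± 0.22, edgeR adjusted p = 2.47e-09). Sdc4, a syndecan bound by GPNMB, was at 131 ± 40.7 CPM in HFD KC, 454 ± 125 for Cx3cr1pos HFD and 1021 ± 377 for ATM HFD (2.90 ± 0.27 for ATM HFD against HFD KC, edgeR adjusted p = 1.61e-07).

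The tetraspanins Cd9 (ENSMUSG00000030342), of the cell surface, and Cd63 (ENSMUSG00000025351), of late endosomes, lysosomes and exosomes, rose with the diet under every alternative run. Cd63 stood at 15.3, 5.65 and 6.16 CPM in STD KC std1, std2 and std3. HFD KC libraries had 70.9, 205, 60.7, 117 and 130 CPM in hfd1, hfd2, hf1, hf2 and hf3. In Cx3cr1pos HFD it lay at 364 to 435 CPM with a median of 381, and in ATM HFD at 795 to 1031 with a median of 872. No neighbouring groups overlapped. Cd9 stood at 32.6 to 41.8 CPM for STD KC, 117 to 189.5 for HFD KC, 235 to 338 for Cx3cr1pos HFD and 402 to 848 for ATM HFD, again with no overlap.

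Cd63 rose in HFD KC against STD KC (log2 fold change 3.70 ± 0.41, edgeR adjusted p = 0.000142) and Cd9 rose 4.51-fold (2.17 ± 0.24, edgeR adjusted p = 0.000142). Both calls held under all 16 alternatives run, each omission of a library among them, with log2 fold changes of 3.37 to 4.29 for Cd63 and 2.06 to 2.36 for Cd9. From HFD KC to Cx3cr1pos HFD, Cd63 rose 3.37-fold (1.75 ± 0.31, edgeR adjusted p = 0.00110) and Cd9 1.69-fold (0.76 ± 0.20, edgeR adjusted p = 0.0175). The Cd9 call was lost without Cx3cr1pos HFD hfd2 (0.59, edgeR adjusted p = 0.0645). It was also lost with frac_neg HFD KC libraries alone (0.61, edgeR adjusted p = 0.168) and with libraries named hf alone (0.69, edgeR adjusted p = 0.193). In ATM HFD against Cx3cr1pos HFD both rose, Cd63 2.14-fold (1.10 ± 0.32) and Cd9 2.21-fold (1.15 ± 0.21, edgeR adjusted p = 0.000303). A pseudogene of Cd63 in the table held up to 3.91% as many counts as Cd63 in a library and one of Cd9 up to 0.121%, so a small part of the reads may be split between copies.

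Platelets also carry Cd9, and the summed level of 6 platelet markers was 552 to 1147 CPM in ATM HFD against 39.6 to 69.6 in the Kupffer groups. Pf4, a chemokine gene that macrophages express too, averaged 746 CPM there and 40.0 in HFD KC. Of the other 5 markers, Ppbp averaged 7.80 CPM in ATM HFD (2.87 to 24.3) against 3.50 in HFD KC, whereas Itga2b (0.689 against 4.82), Gp9 (0.295 against 1.21), Itgb3 (1.02 against 8.51) and Gp5 (0.023 against 0.080) had lower means in ATM HFD. The part of platelets in the Cd9 values was not tested. The ratio of Cd63 to Cd9 counts had geometric means of 0.224 for STD KC, 0.656 for HFD KC, 1.43 for Cx3cr1pos HFD and 1.42 for ATM HFD. The libraries ranged from 0.174 to 0.366 for STD KC, 0.423 to 1.08 for HFD KC, 1.29 to 1.62 for Cx3cr1pos HFD and 1.07 to 2.13 for ATM HFD, so that the last of these groups overlapped with both others of the diet.

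Of 15 other tetraspanin genes, none passed in HFD KC against STD KC by edgeR, with 2 higher and 2 lower at an unadjusted p under 0.05 and 2 lower by DESeq2. In Cx3cr1pos HFD against HFD KC 3 rose and 5 fell, beside 5.85% and 7.48% of all genes. In ATM HFD against HFD KC 5 rose and 6 fell (median -0.18), beside 23.8% and 25.2% of all genes. Tspan15, which directs the protease ADAM10, was at 170 ± 43.6 CPM in HFD KC, 69.3 ± 20.4 for Cx3cr1pos HFD and 1.09 ± 0.37 for ATM HFD (-7.38 ± 0.31 for ATM HFD against HFD KC, edgeR adjusted p = 1.34e-11). Cd81, a broadly expressed tetraspanin, fell from 2122 ± 224 CPM in HFD KC to 359 ± 81.9 in ATM HFD (-2.65 ± 0.15, edgeR adjusted p = 4.65e-10).

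Of the galectins, which are secreted lectins that bind beta-galactosides, Lgals1 (ENSMUSG00000068220) and Lgals3 (ENSMUSG00000050335) were both highest in the adipose cells, but they parted in the liver. Lgals1 stood at 21.4, 33.8 and 26.4 CPM in STD KC. Among HFD KC libraries it read 33.8, 58.7, 13.5, 19.5 and 45.4 CPM in hfd1, hfd2, hf1, hf2 and hf3, so that the control libraries lay inside the range of the fed ones. It lay at 131 to 177 CPM in Cx3cr1pos HFD with a median of 157, and at 983, 1019, 1207, 1244 and 1176 CPM in ATM HFD hfd1, hfd2, hf1, hf2 and hf3. The diet difference in the Kupffer gate was not detectable (0.33, 95% interval -0.31 to 0.97, edgeR adjusted p = 0.678).

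Lgals1 rose 4.58-fold in Cx3cr1pos HFD against HFD KC (2.19 ± 0.30, edgeR adjusted p = 0.000104) and 31.1-fold in ATM HFD against HFD KC (4.96 ± 0.33, edgeR adjusted p = 2.38e-09). ATM HFD also exceeded Cx3cr1pos HFD 6.79-fold (2.76 ± 0.32, edgeR adjusted p = 3.76e-06). On the log2 scale the rise against HFD KC was above that of Spp1 (4.45), but it was below it without HFD KC hfd2 (Lgals1 5.29, Spp1 5.71) and with libraries named hf alone (5.47 and 6.10). Fibroblasts express Lgals1 too, and 8 stellate cell and fibroblast markers summed to 115 to 326 CPM in ATM HFD against 29.5 to 64.0 in HFD KC; their part was not tested. In ATM HFD hf1, where that sum was lowest, Lgals1 was at 1207 CPM, and in hfd2, where it was highest, at 1019.

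Lgals3 stood at 383 to 453 CPM for STD KC, 581 to 831 for HFD KC, 814 to 1247 for Cx3cr1pos HFD and 1812 to 3932 for ATM HFD. Every HFD KC library lay above every STD KC library, but the diet difference missed the threshold (1.67-fold, 0.74 ± 0.20, edgeR adjusted p = 0.0521) and passed under 5 of 16 alternatives, DESeq2 among them (adjusted p = 0.00768). From HFD KC to Cx3cr1pos HFD, it rose 1.48-fold (0.56 ± 0.18, edgeR adjusted p = 0.0451), a call lost under 15 of 21 alternatives. With the HFD libraries alone it was lost both without the replicate block (0.55, edgeR adjusted p = 0.0734) and with it (0.52, edgeR adjusted p = 0.0592). In ATM HFD it rose 3.67-fold against HFD KC (1.87 ± 0.17, edgeR adjusted p = 1.43e-07) and 2.48-fold against Cx3cr1pos HFD (1.31 ± 0.19, edgeR adjusted p = 2.89e-05).

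The ratio of Lgals1 to Lgals3 counts had geometric means of 0.0640 for STD KC, 0.0432 for HFD KC, 0.152 for Cx3cr1pos HFD and 0.424 for ATM HFD. The 4 Cx3cr1pos HFD libraries, 0.142 to 0.163, lay between the HFD KC libraries, 0.0225 to 0.0720, and the ATM HFD libraries, 0.259 to 0.666. The STD KC libraries, 0.0560 to 0.0805, overlapped with those of HFD KC.

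Of 7 genes for other galectins and the galectin-3 binding protein, 6 were tested, and in ATM HFD against HFD KC 2 rose and 4 fell (median -1.26), beside 23.8% and 25.2% of all genes. Lgals9, which encodes the TIM3 ligand galectin-9, was at 568.4 ± 12.7 CPM in HFD KC, at 516 ± 44.1 among the reporter-positive libraries and at 137 ± 13.9 in the adipose cells (-2.14 ± 0.09 for ATM HFD against HFD KC, edgeR adjusted p = 9.32e-12). Lgals3bp fell from 1403 ± 54.4 in HFD KC to 411 ± 65.4 CPM in ATM HFD (-1.86 ± 0.11, edgeR adjusted p = 8.21e-10). Lgals4 rose from 5.64 ± 2.27 to 19.4 ± 6.92 CPM (1.67 ± 0.28, edgeR adjusted p = 0.000113). None of the 6 passed in HFD KC against STD KC by edgeR, by DESeq2 or at an unadjusted p under 0.05.

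Dcstamp (ENSMUSG00000022303), the transmembrane protein gene required for fusion of osteoclasts and of multinucleated giant cells, had few counts in the controls. It was read with 24, 3 and 2 counts in STD KC std1, std2 and std3, or 0.75, 0.095 and 0.057 CPM. The HFD KC levels were 3.95, 13.8, 1.43, 7.15 and 6.30 CPM in hfd1, hfd2, hf1, hf2 and hf3, all above the STD KC libraries. In Cx3cr1pos HFD it was at 6.12, 7.04, 6.88 and 18.5 CPM in hf1, hf2, hf3 and hfd2; only hfd2 exceeded the HFD KC range. In ATM HFD it was at 39.7, 40.7, 33.2, 74.7 and 65.4 CPM in hfd1, hfd2, hf1, hf2 and hf3.

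Dcstamp rose in HFD KC against STD KC (4.45 ± 0.83, edgeR adjusted p = 0.00614), a size that rests on few control counts: it was 6.37 without std1 and 3.96 without HFD KC hfd2, and the call ended without std2 or std3 (edgeR adjusted p = 0.0606 and 0.0537). Cx3cr1pos HFD and HFD KC did not differ past the threshold (0.59, 95% interval -0.46 to 1.63), and without Cx3cr1pos HFD hfd2 the difference was -0.002. Dcstamp rose 7.24-fold in ATM HFD against HFD KC (2.86 ± 0.53, edgeR adjusted p = 0.000257) and 4.83-fold against Cx3cr1pos HFD (2.27 ± 0.56, edgeR adjusted p = 0.00390).

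Acp5 (ENSMUSG00000001348) went the other way between tissues. It stood at 911, 861 and 936.5 CPM in STD KC. HFD KC libraries had 1811, 1196, 1734, 1394 and 1320 CPM in hfd1, hfd2, hf1, hf2 and hf3, all above STD KC. In Cx3cr1pos HFD it was at 1868, 1925, 1915 and 1350 CPM in hf1, hf2, hf3 and hfd2. In ATM HFD it was at 143, 154, 126, 155 and 170 CPM in hfd1, hfd2, hf1, hf2 and hf3, below every liver library.

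Acp5 rose 1.65-fold in HFD KC against STD KC (0.73 ± 0.15, edgeR adjusted p = 0.00983). This call was lost without std2 (0.68, edgeR adjusted p = 0.0813) and with only the 2 groups fitted (0.73, edgeR adjusted p = 0.0572). It fell 10.6-fold in ATM HFD against HFD KC (-3.41 ± 0.14, edgeR adjusted p = 6.27e-12) and 12.6-fold against Cx3cr1pos HFD (-3.66 ± 0.14, edgeR adjusted p = 4.52e-12). Both falls held under every alternative run for them, 22 and 19 in number. Where HFD KC hfd2 was the highest of its group for Dcstamp, it was the lowest for Acp5, and Cx3cr1pos HFD hfd2 likewise was the highest of its group for Dcstamp and the lowest for Acp5. In the annotation used for lengths the exons of Acp5 share 137 bases with 6530413G14Rik and those of Cd9 share 218 with Gm26728, both on the opposite strand, and those of Spp1 share 309 with Gm42793 on the same strand; whether the counting used strand is not given in the sources used here.

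**Figure D4:**
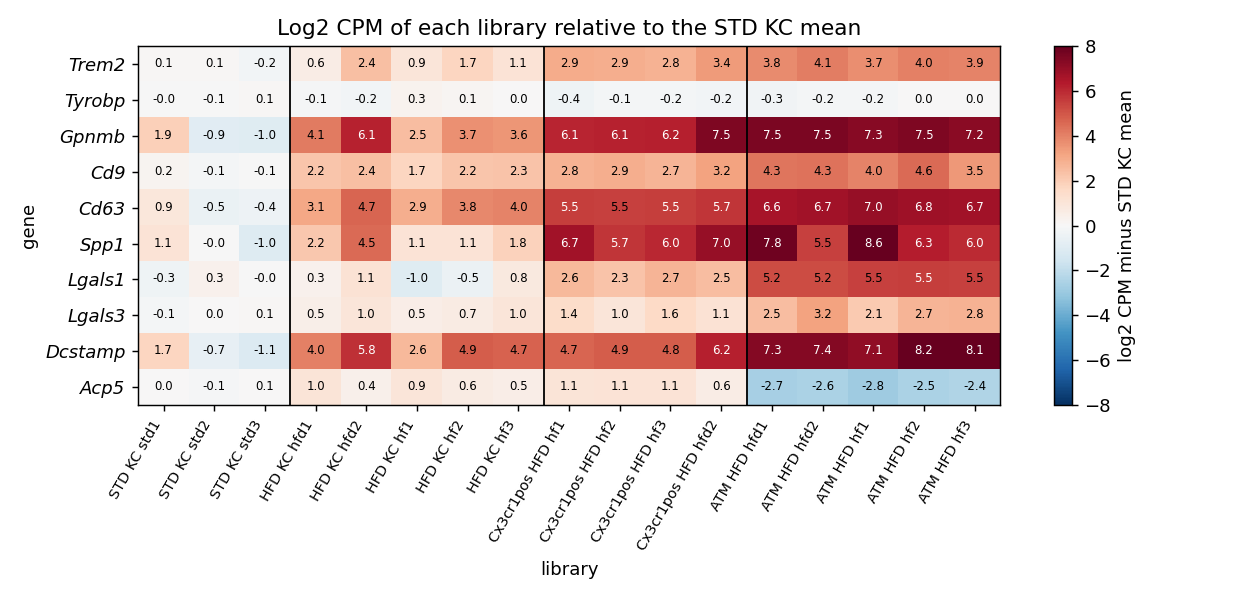
Log2 CPM of each gene (rows) in each of the 17 libraries (columns), minus the mean of the 3 STD KC libraries, with the values written in the cells and black lines between groups. Red is higher and blue lower than STD KC: Acp5 is red in the liver columns of the diet and blue in all 5 ATM HFD columns, Tyrobp is near white throughout, and the column of HFD KC hfd2 is darker than its neighbours for Trem2, Gpnmb, Cd63, Spp1 and Dcstamp.

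Of 17 osteoclast genes for fusion and resorption, 14 were tested. In HFD KC against STD KC 2 rose and 1 fell (1 call in all without std2 or without std3), beside 2.27% and 1.13% of all genes. In ATM HFD against HFD KC 6 rose and 4 fell, beside 23.8% and 25.2% of all genes. Ctsk, the collagen-degrading cathepsin of osteoclasts, was at 7.01 ± 8.28 CPM in HFD KC, 5.75 ± 5.70 for Cx3cr1pos HFD and 555 ± 74.7 for ATM HFD (6.21 ± 0.76 for ATM HFD against HFD KC, edgeR adjusted p = 3.34e-06). Atp6v0d2, a proton pump subunit that also serves fusion, was at 4.23 ± 3.46 CPM in STD KC, 52.6 ± 49.5 in HFD KC (3.65 ± 0.76, edgeR adjusted p = 0.0129) and 893 ± 137 in ATM HFD. Ocstamp, a partner of Dcstamp in fusion, rose from 1.17 ± 0.60 to 15.1 ± 10.3 CPM with the diet (3.69 ± 0.64, edgeR adjusted p = 0.00403), but was at 22.8 ± 3.13 for Cx3cr1pos HFD and 5.77 ± 3.79 for ATM HFD (-2.12 ± 0.48 for ATM HFD against Cx3cr1pos HFD, edgeR adjusted p = 0.00221).

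The MITF and TFE factors, which bind the E-box and M-box and drive Acp5 and Gpnmb in other cells, were 4 genes, of which none passed in HFD KC against STD KC or in Cx3cr1pos HFD against HFD KC by edgeR, by DESeq2 or at an unadjusted p under 0.05. In ATM HFD against HFD KC 1 rose and 1 fell, beside 23.8% and 25.2% of all genes. Mitf went from 40.2 ± 6.12 to 87.3 ± 6.74 CPM (1.03 ± 0.17, edgeR adjusted p = 9.86e-05), and Tfec from 63.8 ± 7.49 to 9.11 ± 5.61 CPM (-2.88 ± 0.30, edgeR adjusted p = 5.37e-07).

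Of 20 other lipid-associated macrophage genes, 10 rose in HFD KC against STD KC, beside 2.27% of all genes, and none fell by edgeR, by DESeq2 or at an unadjusted p under 0.05, with a median log2 fold change of 0.81 against 0.02 over all genes; 6 rose without STD KC std2. The integrin gene Itgax, also stands among the monocyte-derived cell markers. Capg, which caps actin filaments, went from 183 ± 22.1 to 574 ± 63.1 CPM (1.65 ± 0.12, edgeR adjusted p = 2.3e-06), and the aminopeptidase gene Anpep from 6.92 ± 3.48 to 60.1 ± 31.9 CPM (3.12 ± 0.40, edgeR adjusted p = 0.000375). There were 6 that rose and 1 that fell in Cx3cr1pos HFD against HFD KC, beside 5.85% and 7.48% of all genes. In ATM HFD against Cx3cr1pos HFD 13 rose and 1 fell, beside 18.9% and 20.8% of all genes. Plin2, which coats lipid droplets, was at 1127 ± 209 CPM in HFD KC, 1724 ± 144 for Cx3cr1pos HFD and 5396 ± 563 for ATM HFD. Apoc2, an apolipoprotein that activates lipoprotein lipase, was the one that fell, from 60.9 ± 4.35 CPM in Cx3cr1pos HFD to 9.86 ± 1.57 in ATM HFD (-2.73 ± 0.13, edgeR adjusted p = 9.11e-11).

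The HFD KC libraries differed among themselves in how far the members lay from STD KC towards Cx3cr1pos HFD. On the log2 scale, with the STD KC mean as 0% and the Cx3cr1pos HFD mean as 100%, hfd2 lay at 79.9% for Trem2, 94.8% for Gpnmb, 82.2% for Cd9, 83.5% for Cd63, 71.0% for Spp1, 44.8% for Lgals1 and 113.2% for Dcstamp, the highest of the 5 libraries for each. The library hf1 lay at 31.3, 38.3, 58.4, 51.9, 16.9, -38.9 and 50.6% for these genes. For Lgals3 hfd2 lay at 75.4%, below hf3 at 77.5%, and for Acp5 it was the lowest at 42.7%, with hfd1 the highest at 105.5%. Tyrobp, whose groups differ little, is left out of these percentages. For Timd4 hfd2 lay at 34.4% and the other 4 at -4.2 to 8.4%, so the library with the most Trem2 also had the least of the gene that its gate selects. Its Kupffer marker sum, 33110 CPM, was the lowest of the group and its monocyte-derived marker sum, 168 CPM, the highest; their part was not tested.

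The genes whose pattern over the 17 libraries was most like that of 3 members were found by the root mean squared difference of centred log2 CPM among 5721 protein-coding genes with a mean of at least 20 CPM. For Trem2 they were Glipr1 (0.37), Tec (0.39), Psat1 (0.40), Blnk (0.41) and Sulf2 (0.47), and the nearest other member was Cd9 (0.52). Blnk averaged 18.7 CPM for STD KC, 59.2 for HFD KC, 124 for Cx3cr1pos HFD and 374 for ATM HFD. For Gpnmb they were Cd63 (0.66), Anpep (0.80), Lat2 (0.83), Atp6v0d2 (0.84) and Adam8 (0.86), and for Spp1 they were Ms4a4a (0.86), Emb (0.87), Lat2 (0.90), Myo5a and Gpnmb (1.08). These likenesses describe libraries that share groups, names and depth.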

How the data were processed

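Per the labels' protocols, libraries of sorted mouse macrophages were made with SMARTer chemistry and read from a single end over 50 bases. The authors deposited whole-number gene counts for 17 libraries; per the submitters' processing notes the tools were bcl2fastq, STAR 2.0.4b and Subread featureCounts 1.4.5. The genome build, annotation and strand setting are not given in the sources used here. Of 40824 rows, 276 repeated an identifier with the same counts and were dropped.

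Counts were filtered with filterByExpr (15285 genes left), scaled with TMM factors and fitted with 1 coefficient per group over the 17 libraries in edgeR 4.0.16 (R 4.3.3; quasi-likelihood F-test, Benjamini-Hochberg adjustment over all genes, threshold 0.05; common biological coefficient of variation 0.297). Means and SDs are of CPM by library total, and log2 CPM used a prior count of 2. Intervals of 95% are the fold change plus and minus 1.96 SE, and cover only the fitted spread. The procedure was tested on simulated data. Exon lengths and overlaps came from GENCODE M21 (GRCm38), promoter windows from RefSeq.

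Genes named were the 10 members, up to 4 genes per list and comparison with the smallest adjusted p, the sort genes and the 5 nearest patterns of Trem2, Gpnmb and Spp1; the text gives part of these, and Clec5a, Sirpb1a, Anpep, Plin2, Atp6v0d2 and Ocstamp are followed across groups. The members and lists were chosen with earlier results of these data known, and the ratios after their values were seen, so they carry no test. Alternatives were DESeq2 1.42.0, RLE factors, library totals, no filter, only the groups compared, a name prefix term, a replicate block, sort label subsets and omission of each library; subsets by name and HFD libraries without the block were added after seeing the data. Names shared by HFD KC and Cx3cr1pos HFD were checked as pairs, by the deviations of libraries from their group means across genes. Same-named libraries correlated at 0.174 (hf1), 0.166 (hf2), 0.233 (hf3) and 0.301 (hfd2), and differently named ones at -0.24 to 0.16. The 0.16 was between HFD KC hfd1 and Cx3cr1pos HFD hfd2, which share a prefix. Differently named libraries that both had the prefix hf correlated at -0.082 to 0.038. The names were therefore taken to pair HFD KC with Cx3cr1pos HFD, though what they mark is not stated. The p-values of the main fit do not use this pairing. The floor of 3 counts covers counting error only.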

Additional observations from a re-analysis of the deposited data

Results flagged for a closer look

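In 5 of 39 groups of values tested, 1 library lay farther from the others of its group than Dixon's 95% criterion allows. The 39 groups share libraries and are not independent, so their count cannot be set against the 1 in 20 that chance would flag. All 5 fell in libraries named hfd2. In HFD KC hfd2 Gpnmb stood at 1530 CPM and Spp1 at 106.9 CPM, each the highest of its group. In Cx3cr1pos HFD hfd2 Gpnmb at 3845 CPM and Dcstamp at 18.48 CPM were the highest of the group and Acp5 at 1350 CPM was the lowest. ATM HFD hfd2 was not set apart for any member by this criterion.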

How the results depend on the processing

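Calls over all genes in HFD KC against STD KC numbered 519, against 1164 with DESeq2, 231 with only the 2 groups and 125 to 545 with each library left out. The member calls there numbered 6, against 3 with only the 2 groups and 2 to 7 with each library left out. With only the 2 groups, Trem2, Gpnmb, Dcstamp and Acp5 lost their calls (edgeR adjusted p = 0.0572 to 0.0960). Lgals3 gained a call in that fit (edgeR adjusted p = 0.0382). In Cx3cr1pos HFD against HFD KC 2037 genes and 7 members were called, against 1005 genes with libraries named hf alone, 3 genes and 0 members with those named hfd alone, 3 members with frac_neg HFD KC libraries alone, and 1327 to 2114 genes and 4 to 7 members with each library left out. That comparison within hfd sets 1 Cx3cr1pos HFD library against 2 and assumes that the lone library varies like the others. Within hfd, ATM HFD against HFD KC gave 3383 genes and 5 members (7496 and 9 in all libraries), and against Cx3cr1pos HFD 1202 and 3 (6073 and 7). In Cx3cr1pos HFD against STD KC 3677 genes were called, and 2225 to 3675 with each library left out.

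Signs turned for members whose difference had not passed the threshold in the main fit, and for 1 ratio. Tyrobp in HFD KC against STD KC was 0.03, against -0.061 with the prefix term, -0.14 with frac_neg libraries alone and -0.044 to 0.075 with each library left out. Lgals1 there was -0.10 with CD68 libraries alone. In Cx3cr1pos HFD against HFD KC Acp5 was -0.10 within hfd and Dcstamp -0.002 to 1.06 with each library left out, against 0.25 and 0.59 in the main fit. In ATM HFD against Cx3cr1pos HFD Tyrobp was -0.108 within hfd and -0.037 to 0.106 with each library left out. Within hfd Gpnmb was -0.10 and Spp1 -0.048 in that comparison, against 0.69 and 0.83 in the main fit. The Cd63 to Cd9 log2 ratio there was 0.11 within hf and -0.163 to 0.087 with each library left out. The cause of these was not tested. With the HFD libraries alone 6 members were called in Cx3cr1pos HFD against HFD KC, both with the replicate block (1935 genes) and without it (1650 genes), Lgals3 being lost in each (0.52 and 0.55). With the block no other member call changed in the 3 comparisons of HFD libraries. Whether names pair ATM HFD with the liver groups is not settled by these correlations. Same-named libraries correlated at -0.02 to 0.186 with HFD KC and at 0.046 to 0.204 with Cx3cr1pos HFD. Differently named ones reached 0.131 and 0.118, so that the ranges overlapped. No block could be fitted against STD KC, whose names are not shared. DESeq2 gave no adjusted p for Gpnmb. Depth limits Dcstamp in STD KC, with 2 to 24 counts.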
